A study of Mus musculus with 12 samples.

Results

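The loci studied here are those of the IL-2 receptor chains Il2ra and Il2rb and of the signal transducers Stat5a and Stat5b, followed through FoxP3 binding in regulatory T (Treg) cells. Members were chosen by position: every FoxP3 peak with its summit in 1 of 3 windows of the mouse genome build mm9, at chromosome 2 from 11530000 to 11650000 (Il2ra), chromosome 15 from 78270000 to 78350000 (Il2rb) and chromosome 11 from 100620000 to 100760000 (Stat5a and Stat5b together). The windows held 96 peaks over all libraries, which joined into 40 regions (21 at Il2ra, 4 at Il2rb and 15 at Stat5) of 24765 regions genome-wide. A region is a run of peaks, from any library, that overlap by at least 1 bp.

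FoxP3, the forkhead transcription factor that defines Treg cells, was studied with ChIP-seq, in which DNA bound by a protein is immunoprecipitated and sequenced. The A384T group came from C57BL/6J mice whose FoxP3 carries the substitution A384T, and the WT group from C57BL/6J mice with wild-type FoxP3. Both lines also carried a human CD2 (hCD2) reporter, by which CD4+ Treg cells of lymph nodes and spleen were sorted magnetically. Each genotype had 3 ChIP libraries with a peak list apiece. Whether these stand for separate mice is not given in the labels, and the p-values below refer to the spread among libraries alone. The ages of the mice are not in the labels, and peak lists hold no transcript levels against which the sorted cells could be checked.

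Il2ra encodes CD25, the alpha chain that gives the IL-2 receptor its high affinity and marks Treg cells. Il2rb encodes the beta chain, which carries the signal and is shared with the IL-15 receptor. Receptor engagement activates the kinases JAK1 and JAK3, which phosphorylate the transcription factors STAT5A and STAT5B; in Treg cells this signal sustains FoxP3 expression, and FoxP3 in turn is known to bind and raise Il2ra. A384T lies in the forkhead domain, the part of FoxP3 that binds DNA, and is known from patients with the immune disorder IPEX.

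The genes around the windows were known from the RefSeq table of build GRCm38.p6, which gives their order but not their mm9 positions. There Il2ra lies between Rbm17 and Il15ra, Il2rb between Tmprss6 and C1qtnf6, and Stat5b and Stat5a side by side between Ghdc and Stat3. Peaks are therefore not assigned to promoters, introns or exons, and a peak in the chromosome 11 window cannot be given to Stat5a rather than Stat5b. Regions are named below by their window. Without mm9 positions, such a region may also lie in or near a neighbouring gene. Genomic bases under the mm9 peaks are not printed for the same reason.

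RefSeq promoter sequences were used for 3 of the 4 genes, with 5 annotated starts; Il2rb had no entry. The Il2ra sequence is shown because the Il2ra window held the most FoxP3 regions. It covers the 250 bases before the annotated start, on the plus strand at chr2:11642542-11642791 of GRCm38.p6, and capitals mark the short forkhead core TGTTT or its reverse complement AAACA.
Il2ra: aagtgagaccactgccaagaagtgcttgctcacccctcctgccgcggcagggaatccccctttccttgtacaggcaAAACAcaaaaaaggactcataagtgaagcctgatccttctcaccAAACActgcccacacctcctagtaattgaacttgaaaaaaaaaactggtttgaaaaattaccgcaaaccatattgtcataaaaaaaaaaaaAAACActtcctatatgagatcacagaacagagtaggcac
The core occurred 3 times, with its first base 174, 130 and 39 bases before the start. It is a common run of letters: 46.4% of 32851 mouse promoter windows of the same length hold it on either strand. The longer core TGTTTAC (reverse complement GTAAACA, which contains AAACA) is in 3.17% of them, and the STAT site TTCNNNGAA, which is its own reverse complement, in 7.02%. Neither was in the windows of Il2ra, Stat5a or Stat5b.

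Stat5a and Stat5b, neighbouring genes for closely related proteins, also share sequence before an annotated start of each. The best match without gaps was sought over every pair of their annotated starts. Over this stretch of 55 bases 49 bases (89.1%) were identical, which capitals mark below. The Stat5a stretch lies on the plus strand at chr11:100860418-100860472 and the Stat5b stretch on the minus strand at chr11:100822573-100822627, both in GRCm38.p6.
Stat5a: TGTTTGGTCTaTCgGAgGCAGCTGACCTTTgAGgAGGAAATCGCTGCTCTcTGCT
Stat5b: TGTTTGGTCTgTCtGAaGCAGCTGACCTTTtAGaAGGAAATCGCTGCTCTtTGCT
Both stretches open with the forkhead core TGTTT. As they were chosen for their identity, a core in one is likely to be in the other as well. The 250 bases before the other annotated Stat5b start (chr11:100850582-100850831) held no such core.

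All 6 lists were called at the same cutoff, yet they differed in length: 18147, 6657 and 2050 peaks in A384T replicates 1, 2 and 3, and 20723, 1746 and 3905 in WT replicates 1, 2 and 3. Unique ChIP tags ranged from 17520951 to 25386770, and tags were 51 bp long in replicate 1 of each genotype but 49 bp elsewhere. Absence of a peak below means only that the cutoff was not passed.

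FoxP3 peaks were found at Il2ra and at Stat5 in every library of both genotypes. The Il2ra window held 11, 11 and 1 peaks in A384T replicates 1, 2 and 3 and 20, 2 and 7 peaks in WT replicates 1, 2 and 3. The Stat5 window held 14, 6 and 2 peaks in A384T replicates 1, 2 and 3 and 10, 2 and 2 peaks in WT replicates 1, 2 and 3. The Il2rb window held 2, 1 and 0 peaks in A384T replicates 1, 2 and 3 and 4, 0 and 1 peaks in WT replicates 1, 2 and 3. Within each genotype the counts spread widely, and at every locus the genotypes overlapped.

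The 3 windows together had 16 ± 12.1 peaks in A384T libraries and 16 ± 15.9 in WT libraries (SD, n = 3 each), a difference of 0 (two-sided exact permutation test, p = 1; 3 against 3 cannot go below 0.1). Differences per window were -2 peaks at Il2ra (exact permutation p = 0.9), -0.667 at Il2rb (exact permutation p = 0.9) and 2.67 at Stat5 (exact permutation p = 0.7), each A384T minus WT. Within the 49 bp libraries the windows together had 10.5 ± 10.6 peaks in A384T and 7 ± 4.24 in WT (SD, n = 2 each). The 51 bp libraries had 27 peaks in A384T and 34 in WT. For the 3 windows together, leaving out A384T replicate 1 gave a difference of -5.5 and leaving out A384T replicate 3 one of 6.5, while leaving out WT replicate 1 gave 9 and WT replicate 2 gave -6. At Il2ra it was 3.17 without WT replicate 1 and 1.33 without A384T replicate 3; at Stat5 it was -0.667 without A384T replicate 1, and at Il2rb 0.5 without WT replicate 1.

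**Figure D1:**
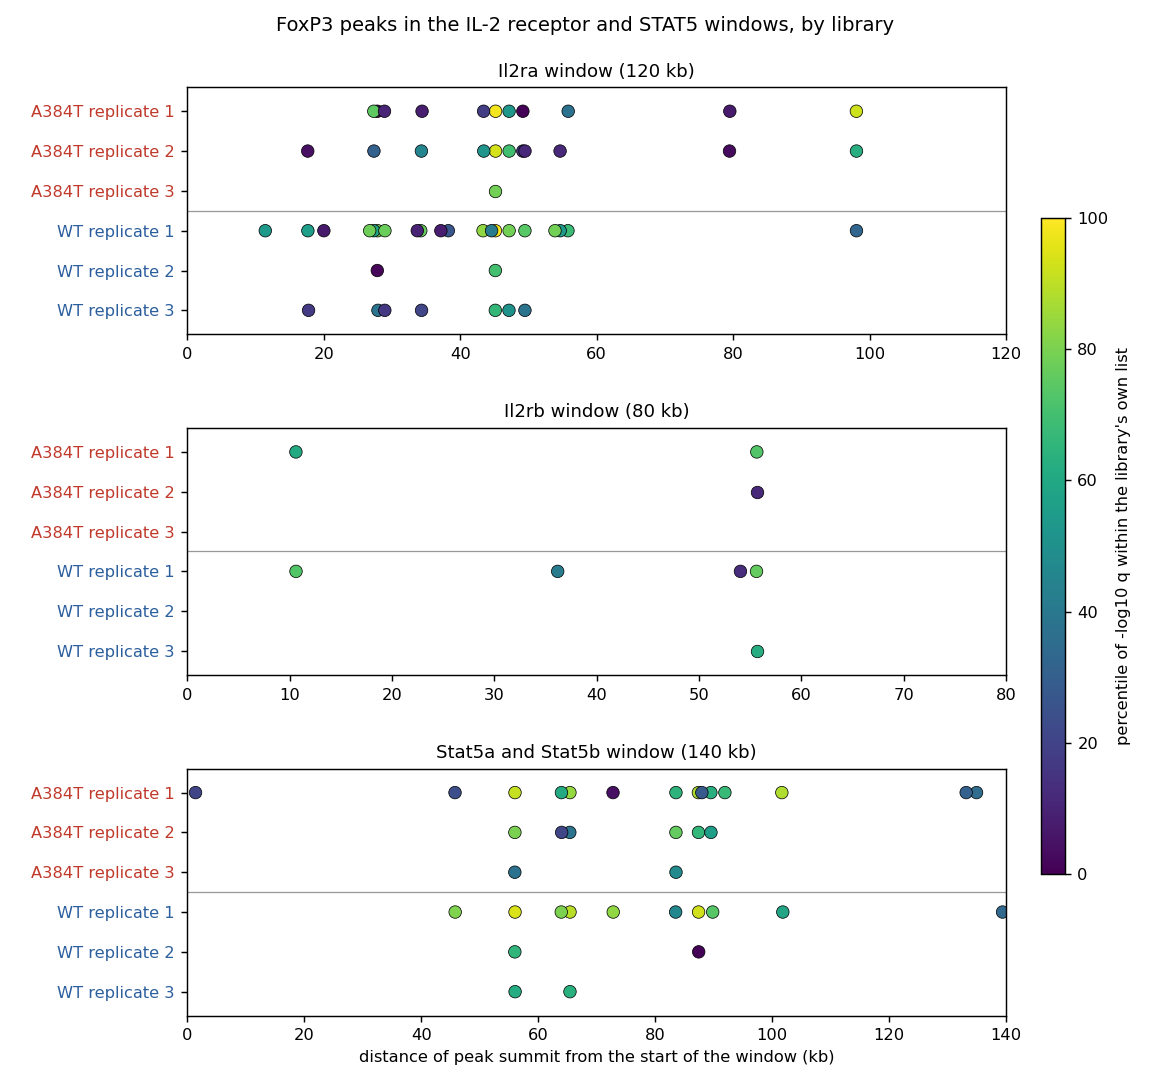
FoxP3 peaks in the Il2ra, Il2rb and Stat5 windows. Each point is a peak, placed by the distance of its summit from the start of the window (kb) and coloured by the percentile of its -log10 q within the list of its own library (100 is the strongest); A384T libraries are above the line and WT libraries below it. Of the 40 regions, 1 at Il2ra and 1 at Stat5 have a peak in all 6 libraries.

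Set against the length of each list, the share of peaks in the windows overlapped between the genotypes. It was 0.149%, 0.270% and 0.146% in A384T replicates 1, 2 and 3 and 0.164%, 0.229% and 0.256% in WT replicates 1, 2 and 3. Exact Clopper-Pearson 95% intervals for these shares ran from 0.0302% to 0.427% in A384T replicate 3 and from 0.0625% to 0.586% in WT replicate 2, the widest of each genotype, and cover counting error only. The means were 0.189 ± 0.0709% in A384T and 0.216 ± 0.0473% in WT (SD, n = 3 each), a difference of -0.0279 points that lay within the spread (two-sided exact permutation test, p = 0.6). The difference ran from -0.0689 points when A384T replicate 2 was left out to -0.00683 when A384T replicate 3 was. It was -0.00805 when A384T replicate 1 was left out, -0.0541 when WT replicate 1 was and -0.00808 when WT replicate 3 was. With -log10 q of 20 or more it was -0.00184 points, and with windows wider by 50 kb on either side -0.0505. Within the 49 bp libraries the difference was -0.0342 points, and the 51 bp libraries had 0.149% in A384T and 0.164% in WT. No Il2rb peak was found among 2050 peaks in A384T replicate 3 or among 1746 in WT replicate 2, for which a limit of 3 counts allows a share of up to 0.146% in A384T replicate 3 and up to 0.172% in WT replicate 2; the exact intervals end at 0.180% in A384T replicate 3 and 0.211% in WT replicate 2.

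Il2ra was one of the denser windows of the genome. Of 21979 genome tiles of the same 120 kb, 0.473%, 0.146% and 6.65% held at least as many peaks in A384T replicates 1, 2 and 3, and 0.328%, 1.48% and 0.305% did in WT replicates 1, 2 and 3. The mean tile held 0.826, 0.303 and 0.0933 peaks in A384T replicates 1, 2 and 3 and 0.943, 0.0794 and 0.178 in WT replicates 1, 2 and 3. Of the 21 Il2ra regions, pooled over all libraries, 19 formed a run of 44.4 kb with no gap of 10 kb or more. Its median gap was 1.59 kb, and it includes 8 regions seen in WT replicate 1 alone. For Stat5, between 0.281% and 1.79% of 140 kb tiles had as many peaks in A384T libraries and between 1.77% and 3.8% in WT libraries. Il2rb stood closer to other 80 kb tiles: 12.7% and 11.1% had as many in A384T replicates 1 and 2, and 4.68% and 6.40% in WT replicates 1 and 3.

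With lists of equal length the counts ran close together. Among the 1746 strongest peaks of each list, the 3 windows held 3 peaks in each A384T library and 3, 4 and 4 peaks in WT replicates 1, 2 and 3. The means were 3 ± 0 in A384T and 3.67 ± 0.577 in WT (SD, n = 3 each), a difference of -0.667 (two-sided exact permutation test, p = 0.4). All 6 shortened lists contained the same Il2ra region and the same Stat5 region. With 3905 peaks, a length reached by 4 lists, Il2ra held 2 and 5 peaks in A384T replicates 1 and 2 and 2 and 7 in WT replicates 1 and 3. At that length Stat5 held 4 peaks in each of A384T replicates 1 and 2 and 4 and 2 in WT replicates 1 and 3.

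**Figure D2:**
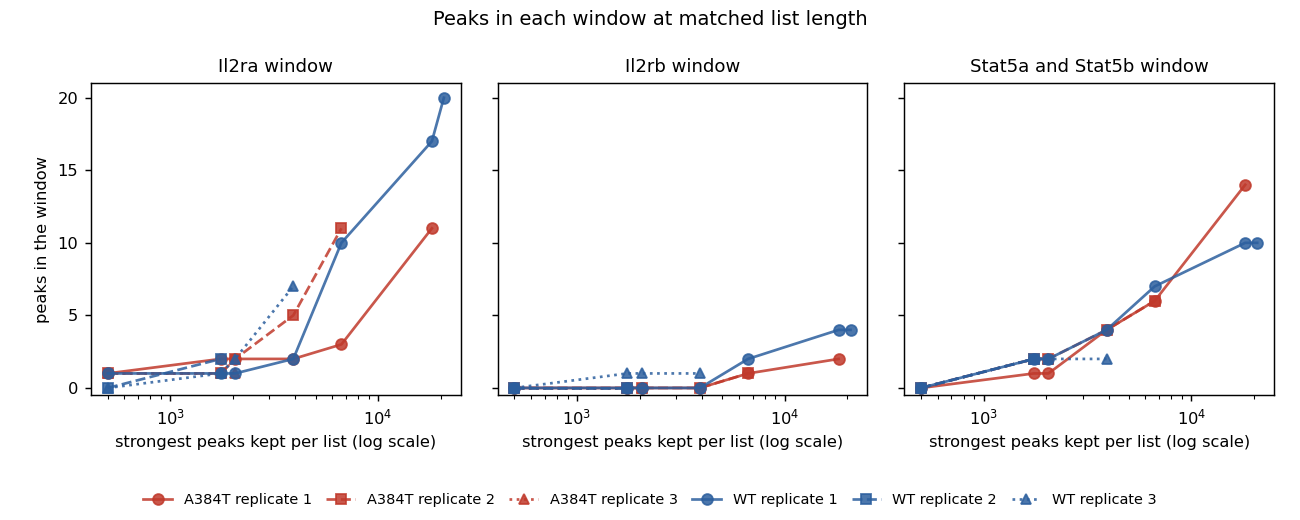
Peaks in each window (vertical axis, count) as each list is shortened to its strongest peaks by -log10 q (horizontal axis, log scale), with A384T libraries in red and WT libraries in blue. At 18147 peaks the Il2ra window held 11 in A384T replicate 1 and 17 in WT replicate 1, and the Stat5 window 14 in A384T replicate 1 and 10 in WT replicate 1.

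The most constant FoxP3 site of the Il2ra locus was the region at chr2:11574923-11575715, called the main region below. Its summit in the 6 libraries fell within 38 bp. The authors' fold enrichment of ChIP over local control there was 38, 26.2 and 11.9 in A384T replicates 1, 2 and 3 and 34.9, 9.84 and 9.79 in WT replicates 1, 2 and 3. The ChIP fragments over the summit numbered 158, 94 and 58 in A384T replicates 1, 2 and 3 and 188, 66 and 54 in WT replicates 1, 2 and 3. The deposited pileup equals this number except in A384T replicate 2 and WT replicate 2, whose control held fewer tags than the ChIP; there it is the number times 0.947 in A384T replicate 2 and 0.880 in WT replicate 2, and the factor was taken out. It was the strongest Il2ra peak in every library by -log10 q. In its list it ranked 327, 419 and 437 in A384T replicates 1, 2 and 3 and 266, 518 and 1312 in WT replicates 1, 2 and 3, in lists of different length. Fold and pileup are the authors' own values per peak and describe a peak within its list.

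Only 2 of the 40 regions, the Il2ra main region and a Stat5 region, had a peak in all 6 libraries. Genome-wide 962 regions (3.88%) did. Inside these 962, which every library shares, the Il2ra main region stood at percentiles 79.0, 64.8 and 67.3 by -log10 q in A384T replicates 1, 2 and 3 and at 74.7, 53.4 and 22.0 in WT replicates 1, 2 and 3. The WT values reached lower, but the highest WT value lay above 2 of the 3 A384T values. In each of the 3 same-numbered pairs the A384T library stood higher (paired exact permutation p = 0.25, the smallest that 3 pairs allow). The labels do not say that these libraries were paired. The means were 70.3 ± 7.60 in A384T and 50.03 ± 26.5 in WT (SD, n = 3 each), a difference of 20.3 points (two-sided exact permutation test, p = 0.3, 0.679 after Benjamini-Hochberg adjustment over the 962; the smallest raw p possible is 0.1). The difference was positive in each of the alternatives run, from 5.84 without WT replicate 3 to 34.1 with ranks by fold enrichment. Within the 49 bp libraries it was 28.5 points.

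The Stat5 main region, at chr11:100675851-100676204, was the only site of its window found in every library, with summits within 45 bp. Its fold enrichment was 18.9, 19.3 and 6.27 in A384T replicates 1, 2 and 3 and 18.1, 11.9 and 8.56 in WT replicates 1, 2 and 3. Fragments over its summit numbered 119, 60 and 55 in A384T replicates 1, 2 and 3 and 150, 53 and 55 in WT replicates 1, 2 and 3. Replicate 1 had the most fragments in each genotype. Inside the 962 shared regions it stood at percentiles 37.3, 23.5 and 25.2 in A384T replicates 1, 2 and 3 and at 27.9, 47.7 and 17.6 in WT replicates 1, 2 and 3. The genotypes overlapped, with means of 28.7 ± 7.55 in A384T and 31.1 ± 15.3 in WT (SD, n = 3 each; difference -2.41, two-sided exact permutation test, p = 0.8, adjusted p = 0.929). The sign turned when A384T replicate 2 (0.138), A384T replicate 3 (5.15) or WT replicate 2 (0.412) was left out, and with ranks by fold enrichment (1.20). Neither main region was thus among the shared regions whose A384T and WT ranks do not overlap, which make up 24.8% of the 962, with A384T higher in 11.5% and WT higher in 13.3%.

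**Figure D3:**
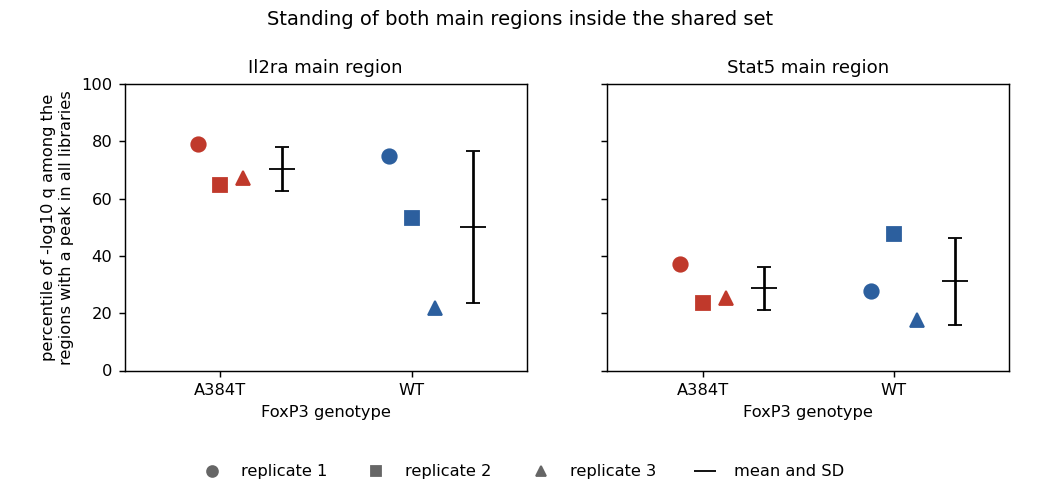
Percentile of -log10 q (vertical axis) of the Il2ra and Stat5 main regions among the 962 regions with a peak in all 6 libraries, for A384T and WT. Coloured points are libraries, and the black bar is the mean with the SD (n = 3). The Il2ra values are 64.8 to 79.0 in A384T and 22.0 to 74.7 in WT, the genotypes overlap in both panels, and at Il2ra each A384T library stands above the WT library of the same number.

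Compared inside a library by -log10 q, the Il2ra main region was ahead of the Stat5 main region. It stood higher by 7.12, 13.8 and 41.0 percentile points of the list in A384T replicates 1, 2 and 3 and by 4.41, 4.90 and 4.80 points in WT replicates 1, 2 and 3. By fold enrichment the ratio of Il2ra to Stat5 was 2.01, 1.36 and 1.89 in A384T replicates 1, 2 and 3 and 1.93, 0.827 and 1.14 in WT replicates 1, 2 and 3. By pileup the ratio was 1.33, 1.57 and 1.05 in A384T replicates 1, 2 and 3 and 1.25, 1.25 and 0.982 in WT replicates 1, 2 and 3. The order was therefore turned round by fold in WT replicate 2 and by pileup in WT replicate 3, and the gaps in points come from lists of different length. Inside the 962 shared regions the Il2ra main region stood at percentiles 79.0, 64.8 and 67.3 in A384T replicates 1, 2 and 3. The Stat5 main region stood at 37.3, 23.5 and 25.2 there. In WT replicates 1, 2 and 3 the values were 74.7, 53.4 and 22.0 at Il2ra and 27.9, 47.7 and 17.6 at Stat5. On this common scale the gap was widest in WT replicate 1, and the gaps of the genotypes overlapped.

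Around the Il2ra main region several regions recurred in both genotypes. Distances below run from the main summit of a window, positive towards higher coordinates. In GRCm38.p6, Il2ra is read in that direction. The +2.01 kb region (chr2:11576559-11577450) had fold enrichments of 12.6 and 16.5 in A384T replicates 1 and 2 and of 13.5 and 10.6 in WT replicates 1 and 3. The -10.8 kb region (chr2:11563967-11564629) had 7.27 and 11.3 in A384T replicates 1 and 2 and 18.7 and 7.67 in WT replicates 1 and 3. Its summits spread over 190 bp, against 25 bp in the +2.01 kb region. The +4.17 kb region (chr2:11579104-11579767) had folds of 6.42 and 10.03 in A384T replicates 1 and 2. In WT replicates 1 and 3 it had 18.1 and 9.54. Summits of these peaks lay at 11579181 and 11579173 in A384T replicates 1 and 2. In WT replicates 1 and 3 they lay at 11579482 and 11579484, so these folds come from different summits. A384T replicate 2 had 2 peaks in the region, of which the stronger is given. The weaker, with a fold of 7.39, had its summit at 11579492, near the WT summits. None of these 3 regions had a peak in the shortest list of either genotype, A384T replicate 3 or WT replicate 2.

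Other Il2ra regions were found in unequal numbers of A384T and WT libraries. More WT than A384T libraries had a peak in 11 of the 21 Il2ra regions, and more A384T than WT libraries in 4. Over all regions the shares were 31% with more WT libraries and 30.7% with more A384T libraries. Of the 11, 8 were seen in WT replicate 1 alone, the longest list, a pattern that 25.6% of all regions show. At Stat5 the balance was the other way, with more A384T libraries in 8 of 15 regions and more WT libraries in 1. There 5 of the 8 were seen in A384T replicate 1 alone, which holds for 16.2% of all regions. Both directions thus rest largely on single replicate 1 lists, and at Il2rb the 2 regions seen in more WT libraries were in WT replicate 1 alone. No test of this balance was made.

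Some of the Il2ra regions were seen in fewer libraries. The -17.8 kb and -1.73 kb regions had a peak in 2 A384T libraries and 1 WT library, and the -27.5 kb region in 1 A384T library and 2 WT libraries. The +10.6 kb and +9.48 kb regions had a peak in 1 library of each genotype. The 8 regions seen in WT replicate 1 alone stood between percentiles 6.97 and 78.6 of that list, so they were not confined to its weakest peaks. Some of them end just before a region found in other libraries. The -0.564 kb region ends at 11574741, before the main region starts at 11574923. The -11.4 kb region ends at 11563860, before the start of the -10.8 kb region at 11563967. Whether such neighbours are separate sites was not tested.

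Single Il2ra sites were found in unequal numbers of libraries. These examples were picked with their values in view, and the shares of all regions with the same numbers of libraries were not counted. The -17.3 kb region of Il2ra (chr2:11557608-11558094) had a peak in 1 A384T library and in all 3 WT libraries. It ranked 17745 of 18147 in A384T replicate 1, and 4204 of 20723, 1713 of 1746 and 2389 of 3905 in WT replicates 1, 2 and 3. The -17.8 kb region (chr2:11557153-11557468) ends just before this region begins. It had the opposite balance, with a peak in 2 A384T libraries and 1 WT library. A384T replicate 2 had its peak there, at 11557291-11557466. The rule of 1 bp of overlap keeps these neighbouring regions apart. The -16.2 kb region (chr2:11558721-11559112) had a peak in 1 A384T library and in 2 WT libraries, and ranked 16257 in A384T replicate 1 and 4751 and 3273 in WT replicates 1 and 3. The +52.9 kb region (chr2:11627910-11628209) had a peak in 2 A384T libraries and in 1 WT library, and ranked 1370 and 2470 in A384T replicates 1 and 2 and 13879 in WT replicate 1. These lists differ in length, so the ranks place each peak in its own list and show no difference between libraries.

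A single region of the windows was restricted to 1 genotype, that is, found in 2 or more of its libraries and in none of the opposite genotype. The +34.3 kb region of Il2ra (chr2:11609308-11609637) had a peak in A384T replicates 1 and 2 and in no WT library. Genome-wide 0.763% of regions had this pattern for A384T and 0.872% the reverse, which 0 of the 40 regions showed. The +34.3 kb region was weak in both libraries, at percentiles 6.90 and 2.89 with fold enrichments of 8.51 in A384T replicate 1 and 8.998 in A384T replicate 2, and no region met the A384T pattern when peaks with -log10 q under 20 were dropped. The count for A384T became 7 when WT replicate 1 was left out, and 0 when A384T replicate 1 or A384T replicate 2 was. The count for WT became 2 when A384T replicate 1 was left out and 1 when A384T replicate 2 was.

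In the Il2rb window only the region at chr15:78325405-78325931 was found beyond the replicate 1 libraries. Its fold enrichment was 16.5 and 7.21 in A384T replicates 1 and 2 and 12.8 and 11.7 in WT replicates 1 and 3, with summits within 40 bp. Within lists of different length it stood at percentiles 72.9 and 11.2 in A384T replicates 1 and 2 and at 75.9 and 62.2 in WT replicates 1 and 3. The -45.0 kb region (chr15:78280481-78280776) was found in replicate 1 of both genotypes, with folds of 13.8 in A384T and 13.1 in WT. The remaining regions, at -19.4 kb (chr15:78306024-78306372) and -1.60 kb (chr15:78323997-78324149), were found in WT replicate 1 alone, both with a fold of 9.04.

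In the Stat5 window 3 further regions were found in 4 libraries. The +9.41 kb region (chr11:100685283-100685593) had fold enrichments of 23.4 and 11.7 in A384T replicates 1 and 2 and of 26.2 and 13.7 in WT replicates 1 and 3. The +31.4 kb region (chr11:100707136-100707737) had 22.6 and 10.4 in A384T replicates 1 and 2 and 27.6 and 5.44 in WT replicates 1 and 2; in WT replicate 2 it ranked 1737 of 1746. The +27.5 kb region (chr11:100703364-100703677) differed from these in having a peak in all 3 A384T libraries, with folds of 12.2, 14.7 and 9.78. It had a peak in 1 WT library, with a fold of 10.3 in replicate 1. Of all regions, 30.7% had a peak in more A384T than WT libraries, and the share with 3 against 1 was not counted. In A384T replicate 3 the +27.5 kb region ranked above the Stat5 main region, at 1081 against 1279 in the list. In WT replicate 3 the +9.41 kb region ranked above the main region, at 1419 against 1500.

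The other 11 Stat5 regions were rarer. The +33.5 kb and +7.95 kb regions had a peak in 2 A384T libraries and 1 WT library, and the +45.7 kb, -10.2 kb and +16.8 kb regions in replicate 1 of both genotypes. The 5 regions of A384T replicate 1 alone stood between percentiles 20.4 and 67.2 of its list. The region of WT replicate 1 alone, at +83.4 kb, stood at 33.6.

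The replicate 1 lists, the longest of each genotype, allow a closer look at single regions when both are shortened to 18147 peaks. With 1 library per genotype these differences have no replicate check. Of 21 regions of the windows with a peak in both, WT replicate 1 had the higher percentile in 16 and A384T replicate 1 in 5; over all 12715 such regions the share higher in WT replicate 1 was 52.5%. At Il2ra 8 of 10 regions were higher in WT replicate 1, with a median difference of -44.6 points (A384T minus WT), against a median of -0.951 over all regions. The main region was nearly level, at 98.2 in A384T replicate 1 and 98.5 in WT replicate 1. The -10.8 kb region was at 8.51 in A384T replicate 1 and 73.1 in WT replicate 1. Its summit lay at 11564412 in A384T replicate 1 and at 11564222 in WT replicate 1. The +4.17 kb region was at 0.725 in A384T replicate 1 and 70.1 in WT replicate 1, with summits at 11579181 and 11579482. In both regions the peaks overlap but their summits differ, so the percentiles need not describe the same site. The +52.9 kb region was the other way round, at 92.5 in A384T replicate 1 and 23.4 in WT replicate 1. At Stat5 the median difference over 9 regions was -4.28 points, with 7 regions higher in WT replicate 1 and 2 in A384T replicate 1. The +16.8 kb region (chr11:100692679-100692954) was at 4.22 in A384T replicate 1 and 81.04 in WT replicate 1, a region picked after its values were seen. Higher in A384T replicate 1 were the +45.7 kb region (88.0 in A384T replicate 1, 53.2 in WT replicate 1) and the +27.5 kb region (64.8 and 39.1).

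**Figure D4:**
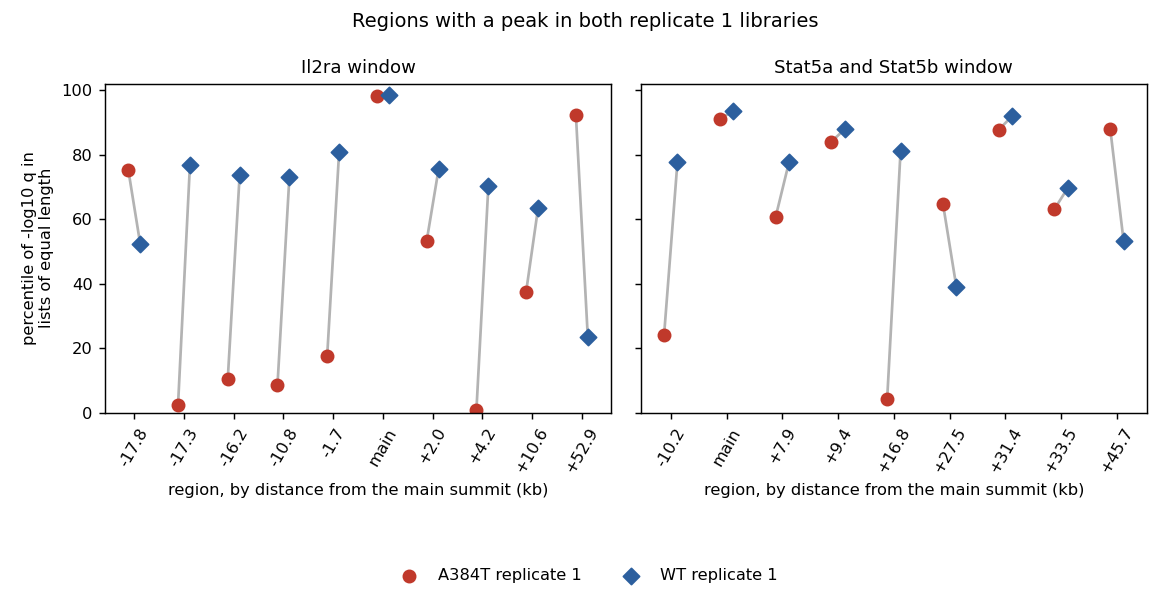
Percentile of -log10 q (vertical axis) in A384T replicate 1 (red circles) and WT replicate 1 (blue diamonds), both lists shortened to 18147 peaks, for regions of the Il2ra and Stat5 windows with a peak in both; regions are ordered by distance from the main summit (kb). The main regions are nearly level, whereas 8 of 10 Il2ra regions are higher in WT replicate 1, with a median difference of -44.6 points.

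The longest 49 bp lists of each genotype were compared in the same way, again with 1 library each. With A384T replicate 2 and WT replicate 3 both at 3905 peaks, 3 Il2ra regions and 1 Stat5 region had a peak in both lists. The -10.8 kb region was at percentile 7.13 in A384T replicate 2 and 21.1 in WT replicate 3, and the +2.01 kb region at 48.3 in A384T replicate 2 and 51.2 in WT replicate 3. Both were higher in WT replicate 3, with differences of -13.9 points for the -10.8 kb region and -2.88 for the +2.01 kb region (A384T minus WT). The Il2ra main region was at 89.3 in A384T replicate 2 and 66.4 in WT replicate 3, and the Stat5 main region at 65.7 in A384T replicate 2 and 61.6 in WT replicate 3. Of the 4 regions, 2 were thus higher in A384T replicate 2 and 2 in WT replicate 3, with a median difference of 0.621 points. Over all 2316 regions with a peak in both lists 54.3% were higher in WT replicate 3, with a median of -1.85 points. The +4.17 kb region could not be compared at this length, since its stronger peak in A384T replicate 2 ranked 5583.

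The width of the peaks lay above the whole list's median in some libraries of each genotype and below it in others. The median width over the 3 windows was 300, 207 and 146 bp in A384T replicates 1, 2 and 3, where whole lists had 264, 214 and 180.0 bp. In WT replicates 1, 2 and 3 it was 324, 172.5 and 218 bp, where whole lists had 261, 190.0 and 211 bp. Of the 40 regions, 23 (57.5%) had a peak in both genotypes, close to the 56.0% of all regions, and 19 (47.5%) had a peak in at least 1 replicate 2 or 3 library, where 28.9% of all regions did.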

How the data were processed

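FoxP3 was immunoprecipitated after 30 min in 1% formaldehyde with 4 µg of a rabbit polyclonal antibody, per the labels. Bowtie2, MACS2 and build mm9 are named in the submitters' processing notes. Per the file headers, MACS 2.1.0.20140616 called each library by itself, with a control library, at a q-value cutoff of 1e-10, with 1 tag kept per position. The deposited lists give each peak's pileup (a signal value, which the values show to be scaled down where the control held fewer tags than the ChIP), fold enrichment (a ratio to local control), -log10 p-value and -log10 q-value, and its length. The labels name 6 input libraries, which were not analysed here as samples.

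Only peaks of chromosomes 1 to 19, X and Y were kept. Regions were joined at 1 bp of overlap, and a library's strongest peak was taken in each region. Percentiles are ranks of -log10 q, 100 being strongest. Genotypes were compared with two-sided exact permutation tests, adjusted over all 962 shared regions. The counting was tested on simulated lists. The windows and tests were chosen with earlier results of these data known. Named regions had a peak in all libraries or were the first 4 of a window by libraries and then mean percentile; others are marked. Same-numbered libraries deviated together inside the shared set (r = 0.435, 0.123 and 0.374 for replicates 1, 2 and 3), so the numbers were also used as blocks. The labels do not say that these libraries were paired, so the pairing rests on the same data. Alternatives were fold and q thresholds, widened windows, other overlaps, list lengths and ranking values, each library left out, and 49 bp libraries alone. Other IL-2 pathway genes were not counted, as no mm9 annotation was used. Tools were scipy 1.17.1, pandas 2.3.3, numpy 2.4.6 and matplotlib 3.10.9 in Python 3.11.15.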

Additional observations from a re-analysis of the deposited data

How the results depend on the processing

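Of 159 alternatives to 14 results, 128 kept the direction, though not always the size, or stayed within 1.5 times the count. Another 20 moved a count or left or reached a difference of 0, and 11 reversed a sign. No test could pass 0.05 in this design, so none gained or lost a call. The 128 include settings that could change little. A minimum fold of 5 removed no peak of the windows, where the lowest fold was 5.44, and the replicate block keeps every difference. Among lists of equal length the difference of -0.667 peaks became 0.333 with -log10 q of at least 20 and 0.667 with the 500 strongest peaks. At 500 the Il2ra main region was in all 3 A384T lists and, of the WT lists, in replicate 1 alone. It ranked 518 in WT replicate 2, just past that cut, and 1312 in WT replicate 3. For the 3 windows the difference of 0 became -0.667 with -log10 q of at least 20, -0.667 with windows widened by 50 kb and 3.5 in the 49 bp libraries. The Stat5 rank difference of -2.41 became 1.20 with ranks by fold enrichment. The Il2ra count difference of -2 became 1.5 in the 49 bp libraries, an alternative chosen after the data were seen, as was each 49 bp value. Of regions restricted to one genotype, the A384T count of 1 became 0 with -log10 q of at least 20 and 3 with summits within 200 bp, and the WT count of 0 became 1 with -log10 q of at least 20, in lists of equal length and in the 49 bp libraries. The cause was not tested. Leaving out 1 library gave -6 to 9 peaks and -0.0689 to -0.00683 points of share for the 3 windows, -5.83 to 3.17 for Il2ra, -1.5 to 0.5 for Il2rb, -0.667 to 5.33 for Stat5, -9.65 to 5.15 points for the Stat5 rank, 0 to 7 restricted A384T regions and 0 to 2 restricted WT regions. The replicate block leaves the differences as they are by construction and changed no call; for the difference in share of -0.0279 points its exact p was 0.75, and 3 pairs cannot go below 0.25. List length limits what can be compared, since the shortest lists held 3 and 4 peaks in the windows.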
